A study of Drosophila melanogaster with 31 samples.

Results

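Transcripts of the growth regulator Myc, of its antagonist Mnt and of 5 genes of the nucleolus were followed in larval wing discs of Drosophila melanogaster. The 7 genes are dm, Mnt, RpI1, RpI135, Fib, Nop60B and nop5. They were picked by gene name, not by a threshold on measured values, but with earlier results of these data known. They are 7 of the 17373 genes counted. All 7 had enough counts to be tested, as had 9004 genes in all, and each held between 949 and 14254 counts in every library.

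Wing discs are the larval epithelia that form the adult wing and notum. The 18 RNA libraries form 6 groups of 3, and each is a pool of hand-dissected discs from 12 to 35 larvae of the last instar. The groups were cic wts discs at day 9, wts discs at day 9, cic wts discs at day 5, wts discs at day 5, cic discs at day 5 and control discs at day 5. All larvae, the controls among them, were y w with a ubxflp element, which supplies FLP recombinase, and carried an FRT82B chromosome marked with M(3) and ubiGFP over a second FRT82B chromosome. That second chromosome bore cicQ474X and wts149 in cic wts discs, wts149 alone in wts discs, cicQ474X alone in cic discs, and no listed mutation in control discs. Recombination at FRT82B leaves clones without M(3) among cells that still carry this dominant growth-slowing Minute mutation, so each library mixes clone and non-clone cells. Fewer cells of a type and less RNA per cell cannot be told apart in such libraries. Discs of control and cic larvae at day 9 were not analysed here.

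Myc, encoded by dm (diminutive), is a transcription factor that pairs with Max and raises the growth rate of cells, in large part by turning on genes for ribosome production. Mnt also pairs with Max, but represses the genes it binds. In wing discs the level of Myc is known to set cell size and the outcome of competition between neighbouring cells, and Yorkie, the co-activator held back by the Hippo kinase Warts (wts), is known to act on dm. Capicua (cic) is a repressor that Ras signalling relieves. The title of the series asks how Hippo signalling alters the response to Ras, so the members were compared between wts, cic, cic wts and control discs and between days.

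Libraries held 14201662 to 26217144 counts. Summed wing disc markers (vg, nub, ap, sd, rn and pnr) lay between 1633.2 and 2060.8 CPM (counts scaled to library size, with TMM factors, as throughout) in all 18 libraries, and no marker was at 0 in all libraries of a group. Of the other tissues, 7 salivary gland markers summed to 6136.6 CPM in control replicate 3 and 257 CPM in control replicate 2, and to at most 18.7 CPM in the remaining libraries. The 6 hemocyte markers summed to 1478.5 CPM in cic wts day 5 replicate 1, against 12.1 to 122 CPM elsewhere. The 6 fat body markers summed to 623 CPM in cic wts day 5 replicate 2, against 0.968 to 220.1 CPM elsewhere. As a check of the labels, cic RNA averaged 465 ± 21.8 CPM in cic wts discs and 647 ± 43.6 CPM in wts discs at day 5 (SD, n = 3 each), a fall by 0.48 on the log2 scale (adjusted p = 0.033). The wts149 libraries held more wts RNA, 203 ± 15.7 CPM in wts discs and 100.2 ± 5.69 CPM in control discs at day 5 (SD, n = 3 each), a log2 fold change of 1.02 (adjusted p = 1.1e-06). In cic against control discs cic RNA had -0.33 ± 0.12 and was not called (adjusted p = 0.25). Replicates are numbered, but nothing states that their larvae were reared apart, and the p-values therefore reflect variation among these disc pools only.

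The member that changed most firmly was dm, located on chromosome X from 3373159 to 3391697 (Release 6, dm6). It was 1.58-fold higher in wts discs and 1.65-fold higher in cic wts discs than in control discs at day 5. The 3 libraries of cic wts discs at day 9 held 332, 346 and 303 CPM of dm, and those of wts discs at day 9 held 289.8, 378 and 341 CPM. At day 5, dm stood at 278, 325 and 284 CPM in cic wts discs and at 291, 269 and 289 CPM in wts discs. It stood at 209, 199.5 and 210.4 CPM in cic discs and at 172, 192 and 174 CPM in control discs.

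All 12 libraries mutant for wts thus held more dm than any of the 6 libraries with intact wts. By group mean the order from the top was wts day 9, cic wts day 9, cic wts day 5, wts day 5, cic and control. The ranges of neighbours in that order overlapped among the 4 wts-mutant groups, and did not overlap between wts day 5 and cic or between cic and control. Only weakly expressed annotated genes overlap dm: CR44999 reached 0.311 CPM and CG12535 reached 0.610 CPM.

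**Figure D1:**
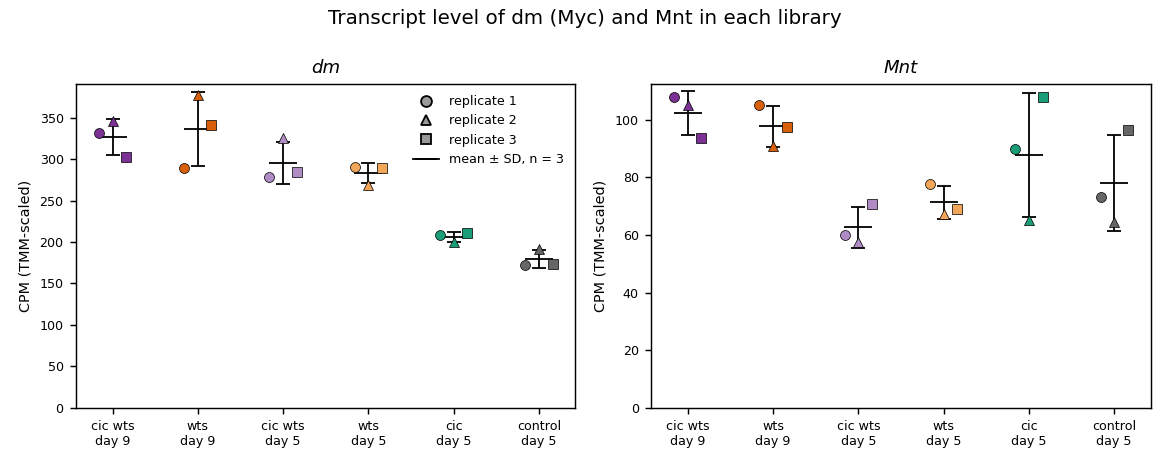
Levels of dm (left) and Mnt (right) in CPM on a linear axis, with 1 symbol per library, its shape giving the replicate, and bars for mean ± SD of 3 libraries. The lowest wts-mutant library of dm, at 269 CPM, lies above the highest cic library at 210.4 CPM, and the 6 day 9 libraries hold 90.8 to 108 CPM of Mnt.

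In wts discs at day 5, dm averaged 283 ± 12.5 CPM, against 179 ± 10.8 CPM in control discs (SD, n = 3 each). The log2 fold change was 0.66 ± 0.09 (SE; adjusted p = 0.00018, edgeR's quasi-likelihood test with Benjamini-Hochberg adjustment over all genes tested, as for every adjusted p here unless stated). It was the only call among the 7 members, in a comparison that called 18.2% of all genes in either direction, and each wts library was above each control library, as for 19.9% of all genes. In cic wts discs dm averaged 296 ± 25.9 CPM (SD, n = 3), with a log2 fold change against the same control libraries of 0.72 ± 0.09 (SE; adjusted p = 4.6e-05). Here too dm was the only member called, where 22.5% of all genes were, and its libraries lay above the control libraries, as for 18.4% of all genes.

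Against cic discs, at 206 ± 5.89 CPM of dm (SD, n = 3), cic wts discs had a log2 fold change of 0.52 ± 0.09 (SE; adjusted p = 0.00044). Of the 7 members 2 were called in that comparison, dm and Mnt, where 29.2% of all genes were called. The comparison shares its cic wts libraries with the one against control. Each of these 3 rises of dm stayed past the threshold under all 25 alternative settings, with adjusted p of at most 0.0076.

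Markers of adult muscle progenitors (twi, Him, htl and Ama), which lie under the disc epithelium, also differed between these groups at day 5. The 4 summed to 79.0 to 95.0 CPM in cic wts discs and 133 to 162 CPM in wts discs at day 5. In cic discs they summed to 259.6 to 316 CPM and in control discs to 247 to 265 CPM. None of the 4 was at 0 in all libraries of a group. The male-specific RNAs roX1 and roX2 summed to 449.6 to 1112.2 CPM in cic wts discs and 596 to 740.2 CPM in wts discs at day 5. In cic discs they summed to 117 to 423 CPM, below every cic wts library, and in control discs to 237 to 605 CPM. At day 9, where dm averaged 336 CPM in wts and 327 CPM in cic wts discs, the sums were other than at day 5. The muscle progenitor markers then summed to 206 to 249 CPM in wts and 133 to 195 CPM in cic wts discs. The roX RNAs summed to 474 to 687 CPM in wts and 231 to 442 CPM in cic wts discs. The gene dm is X-linked. The part of either in the result was not tested.

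Loss of cic left dm close to its level in the matched background. In cic discs dm was higher than in control discs in all 3 libraries, with a log2 fold change of 0.20 ± 0.09 (SE), but this did not pass the test over all genes (adjusted p = 0.42, unadjusted 0.038). Libraries lay apart in this direction for 5.81% of all genes. In the wts background the log2 fold change of dm in cic wts against wts discs was 0.06 ± 0.09 at day 5, with an adjusted p of 0.82. At day 9 it was -0.04 ± 0.09, with an adjusted p of 0.88. The difference between the effect of cic in wts and in non-wts discs was itself -0.14 ± 0.13 (SE; adjusted p = 0.67).

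No other member passed the test for an effect of cic either. With edgeR 0 of 7 members were called in cic against control, where 1.63% of all genes were, and 1 member, dm, had an unadjusted p under 0.05. For cic wts against wts 0 of 7 were called at day 5, where 2.91% of all genes were, with nop5 alone under an unadjusted 0.05, and 0 of 7 at day 9, where 6.90% were and no member was under an unadjusted 0.05. DESeq2 also called 0 members in these 3 comparisons. The interaction of cic with wts at day 5 had 0 calls among the 7 and 1.94% among all genes. Its highest value was that of nop5, 0.42 ± 0.18 (SE; adjusted p = 0.27, unadjusted 0.031), and DESeq2 called 0 members.

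Mnt, on chromosome X from 3671801 to 3701672, had its highest group means at day 9, as did dm. Unlike dm, it was not called higher in wts or cic wts discs than in control discs at day 5. Its day 9 libraries held 108, 105 and 93.7 CPM in cic wts discs and 105, 90.8 and 97.4 CPM in wts discs. At day 5, Mnt stood at 59.8, 57.4 and 70.8 CPM in cic wts discs and at 77.8, 67.2 and 69.0 CPM in wts discs. It stood at 89.7, 65.2 and 108 CPM in cic discs and at 73.1, 64.4 and 96.4 CPM in control discs.

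The cic and control groups were the most spread, each reaching from the level of the day 5 wts discs to that of the day 9 discs. In both groups replicate 3 held the most Mnt and replicate 2 the least. Neighbours in the order of means overlapped throughout. Against control, Mnt had a log2 fold change of -0.13 ± 0.16 in wts discs (adjusted p = 0.62) and -0.31 ± 0.16 in cic wts discs (adjusted p = 0.18). Against cic discs it fell by 0.48 ± 0.16 in cic wts discs (SE; adjusted p = 0.035), with means of 62.7 ± 7.11 CPM in cic wts and 87.5 ± 21.3 CPM in cic discs (SD, n = 3 each) and overlapping libraries. That call was lost without cic replicate 3 (-0.30, adjusted p = 0.19), cic replicate 1 (-0.46, 0.08), cic wts day 5 replicate 2 (-0.42, 0.12) or cic wts day 5 replicate 1 (-0.45, 0.086), in a fit of just these 6 libraries (-0.49, 0.12), and without control replicate 3 and cic wts day 5 replicate 1 together (-0.44, 0.056).

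Mnt was higher at day 9 than at day 5 in both genotypes, and passed the test in cic wts discs. There it averaged 102 ± 7.53 CPM at day 9 and 62.7 ± 7.11 CPM at day 5 (SD, n = 3 each), a log2 fold change of 0.70 ± 0.16 (SE; adjusted p = 0.014), and each day 9 library was above each day 5 library, as for 17.2% of all genes. Without cic wts day 9 replicate 1 the value was 0.66 (adjusted p = 0.074), and without cic wts day 5 replicate 1 it was 0.67 (adjusted p = 0.057). In wts discs Mnt averaged 97.7 ± 7.11 CPM at day 9 and 71.4 ± 5.67 CPM at day 5 (SD, n = 3 each), again without overlap, as for 17.5% of all genes, with a log2 fold change of 0.45 ± 0.16 (SE; adjusted p = 0.096). With only the 6 libraries compared in the fit that value was 0.46 (adjusted p = 0.0077), with DESeq2 it was 0.47 (adjusted p = 0.043), and without cic replicate 2 it was 0.45 (adjusted p = 0.049).

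For dm, day 9 was 0.15 ± 0.09 above day 5 in cic wts discs (adjusted p = 0.31) and 0.25 ± 0.09 above it in wts discs (adjusted p = 0.098), on the log2 scale. The wts value passed the test with DESeq2 (0.26, adjusted p = 0.043) and without wts day 9 replicate 1 (0.35, adjusted p = 0.034). Whether dm and Mnt changed more with age in cic wts than in wts discs was tested as an interaction, which gave -0.10 ± 0.13 for dm (adjusted p = 0.93) and 0.25 ± 0.23 for Mnt (adjusted p = 0.91).

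Because dm and Mnt are counted in the same library, their ratio does not depend on library scaling. The number of dm counts per Mnt count averaged 3.21 ± 0.125 in cic wts discs and 3.48 ± 0.702 in wts discs at day 9. The day 5 means were 4.77 ± 0.836 in cic wts and 3.98 ± 0.228 in wts discs, and 2.45 ± 0.562 in cic and 2.38 ± 0.588 in control discs (SD, n = 3 each). Each day 5 library mutant for wts had a higher ratio, from 3.74 to 5.67, than every cic or control library, from 1.80 to 3.06. The ratio is a count ratio and not a ratio of molecules, as the transcripts differ in length, and it was not tested apart from its 2 genes.

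**Figure D2:**
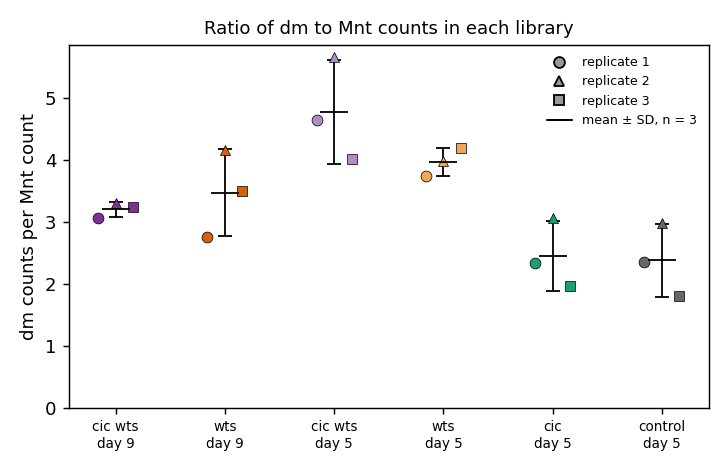
Counts of dm per count of Mnt on a linear axis, with 1 symbol per library and bars for mean ± SD of 3 libraries. The day 9 groups average 3.21 and 3.48, below the day 5 groups mutant for wts at 4.77 and 3.98, and the cic and control groups at the right average 2.45 and 2.38.

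The nucleolus is where RNA polymerase I transcribes ribosomal RNA and where small nucleolar ribonucleoproteins (snoRNPs) modify it before it is built into ribosomal subunits. RpI1 (chromosome 2R, 14595611 to 14601216) encodes the largest subunit of RNA polymerase I and RpI135 (chromosome 2L, 404285 to 407969) the other large core subunit. Fib (chromosome 2R, 23072909 to 23074725) encodes fibrillarin, the RNA methyltransferase of box C/D snoRNPs, and nop5 (chromosome 2L, 6916753 to 6918743) a core protein of the same particles. Nop60B (chromosome 2R, 24174877 to 24186343) encodes the fly dyskerin, the pseudouridine synthase of box H/ACA snoRNPs. Many genes of this kind are known targets of Myc in flies.

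At day 5 none of the 5 nucleolar genes passed the edgeR test in wts or cic wts discs against control, where dm rose. Of all genes, 18.2% were called in wts against control and 22.5% in cic wts against control. RpI1 held 219.7, 189 and 209.8 CPM in cic wts discs, 172, 207 and 174 CPM in wts discs, 186, 177 and 148 CPM in cic discs and 170.4, 199.9 and 155 CPM in control discs. All 4 groups overlapped, except that each cic wts library was above each cic library, as for 19.0% of all genes. The log2 fold change of RpI1 against control was 0.24 ± 0.11 in cic wts discs (adjusted p = 0.12) and 0.07 ± 0.11 in wts discs (adjusted p = 0.67). Against cic discs it was 0.28 ± 0.11 in cic wts discs (adjusted p = 0.061). Leaving out 1 library brought RpI1 past the threshold against control for control replicate 2 (0.34, adjusted p = 0.038), and against cic for control replicates 2 and 3 (0.28 each, 0.042 and 0.047), cic replicate 1 (0.35, 0.041), wts day 5 replicate 2 (0.28, 0.046) and cic wts day 5 replicate 2 (0.34, 0.047).

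RpI135 held 93.8, 84.8 and 90.7 CPM in cic wts discs, 71.5, 97.6 and 71.4 CPM in wts discs, 89.1, 88.7 and 80.8 CPM in cic discs and 88.2, 98.7 and 75.5 CPM in control discs at day 5. The control libraries reached as low and as high as nearly all others. Its log2 fold change against control was 0.04 ± 0.12 in cic wts discs (adjusted p = 0.86) and -0.13 ± 0.12 in wts discs (adjusted p = 0.49).

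The 3 snoRNP proteins had their highest group mean in control discs. The fly fibrillarin gene Fib held 259, 169 and 240.2 CPM in cic wts discs, 204, 212 and 176 CPM in wts discs, 231, 234 and 199 CPM in cic discs and 251, 272 and 186 CPM in control discs at day 5. Nop60B held 592, 439 and 558 CPM in cic wts discs, 429.7, 500.0 and 414 CPM in wts discs, 530.4, 499 and 486 CPM in cic discs and 538, 612 and 467 CPM in control discs. In both genes replicate 2 was the lowest cic wts library, and the groups overlapped. That library also held the 623 CPM of fat body markers, and the part of this in its values was not tested.

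The box C/D protein gene nop5 held 458, 333 and 433 CPM in cic wts discs, 313, 366 and 309.6 CPM in wts discs, 395, 395 and 383 CPM in cic discs and 420.5, 487 and 358 CPM in control discs. The highest wts library, at 366 CPM, reached into the control range. Against control, nop5 in wts discs came closest to the threshold, with a log2 fold change of -0.36 ± 0.12 (SE; adjusted p = 0.059). It passed with other scalings (RLE size factors, -0.38, adjusted p = 0.048; total counts, -0.41, adjusted p = 0.028), with DESeq2 (-0.38, adjusted p = 0.019), and without control replicate 3 (-0.46, adjusted p = 0.027), wts day 5 replicate 2 (-0.44, 0.048), cic wts day 5 replicate 1 (-0.36, 0.045) or replicate 2 (-0.36, 0.028).

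In the same comparison Fib stood at -0.26 ± 0.15 (adjusted p = 0.24) and Nop60B at -0.27 ± 0.12 (adjusted p = 0.14). For cic wts against control the 3 values were -0.09 ± 0.15 for Fib, -0.02 ± 0.12 for Nop60B and -0.05 ± 0.12 for nop5, with adjusted p of 0.72, 0.91 and 0.81. For cic wts against wts they were 0.17 ± 0.15 for Fib, 0.24 ± 0.12 for Nop60B and 0.31 ± 0.12 for nop5, with adjusted p of 0.66, 0.36 and 0.24. The gene x16 overlaps nop5 in the genome and ranged from 168 to 223 CPM over all libraries, and the counting of reads in their overlap is not known here.

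**Figure D3:**
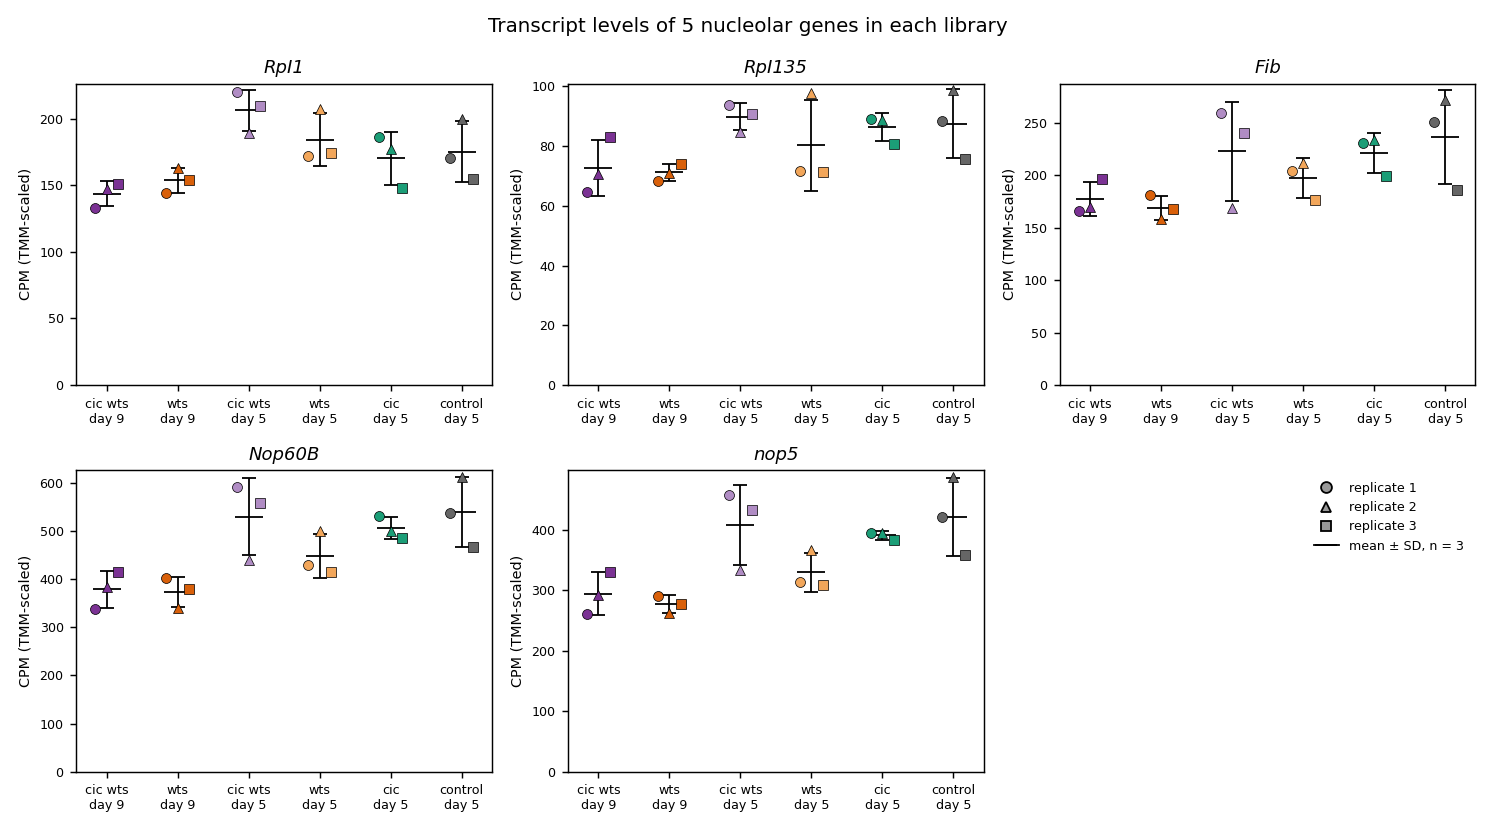
Levels of the 5 nucleolar genes in CPM, each on its own linear axis, with 1 symbol per library, its shape giving the replicate, and bars for mean ± SD of 3 libraries. In each panel the day 9 groups at the left have the lowest means, for RpI1 144 and 154 CPM, and the 4 day 5 groups to their right mostly overlap.

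With age 3 of the 5 nucleolar genes fell in cic wts discs, while Mnt rose. At day 9, RpI1 in these discs held 133, 147 and 151 CPM, RpI135 held 64.6, 70.5 and 82.9 CPM and Fib held 166, 170.0 and 196 CPM. Nop60B there held 338, 384 and 414 CPM and nop5 held 261, 292 and 331 CPM. For RpI1, RpI135, Nop60B and nop5 each of these libraries lay below each cic wts library of day 5, which held for 14.7% of all genes, and for Fib 1 day 5 library, replicate 2, lay among them.

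Between day 9 and day 5 in cic wts discs 4 of the 7 members were called, 1 up (Mnt) and 3 down, where 10.6% of all genes were called, 6.06% higher and 4.54% lower. RpI1 fell by 0.52 ± 0.11 on the log2 scale (SE; adjusted p = 0.0076), to 144 ± 9.37 CPM at day 9, against 206 ± 15.5 CPM at day 5 (SD, n = 3 each). Nop60B fell by 0.48 ± 0.12 (SE; adjusted p = 0.021), to 379 ± 38.3 CPM at day 9, against 529.8 ± 80.1 CPM at day 5. The box C/D gene nop5 fell by 0.47 ± 0.12 (SE; adjusted p = 0.028), to 295 ± 35.1 CPM at day 9, against 408 ± 66.1 CPM at day 5. RpI135 stood at -0.31 ± 0.12 (adjusted p = 0.12) and Fib at -0.33 ± 0.15 (adjusted p = 0.18).

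These calls rested on few libraries. Without cic wts day 9 replicate 1, 0 members were called with edgeR, 4 had an unadjusted p under 0.05, and 2.55% of all genes were called. RpI1 was then at -0.47 (adjusted p = 0.055), Nop60B at -0.41 (0.12) and nop5 at -0.39 (0.15). RpI1 alone was called without cic wts day 5 replicate 1, where 3.93% of all genes were, with Nop60B at -0.40 (0.096) and nop5 at -0.38 (0.12). Mnt and RpI1 were called without control replicate 3 and cic wts day 5 replicate 1 together (4.37% of all genes; Nop60B -0.40, 0.074; nop5 -0.38, 0.088), without cic wts day 9 replicate 2 (4.33%; Nop60B -0.50, 0.059; nop5 -0.47, 0.081) and without cic wts day 5 replicate 3 (9.10%; Nop60B -0.45, 0.052; nop5 -0.43, 0.069). Without cic wts day 5 replicate 2, Fib was called too (-0.50, adjusted p = 0.041). The median of the 5 genes stayed between -0.38 and -0.58 in each of these fits. In a fit of the 6 libraries compared alone nop5 was not called (-0.48, adjusted p = 0.067). DESeq2 on all libraries called the same 4 members and 1382 of all genes.

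Hemocyte markers in these discs summed to 61.4 to 72.4 CPM at day 9 and 27.0 to 1478.5 CPM at day 5, fat body markers to 0.968 to 13.1 CPM at day 9 and 3.25 to 623 CPM at day 5, and muscle progenitor markers to 133 to 195 CPM at day 9 and 79.0 to 95.0 CPM at day 5. Without cic wts day 5 replicate 1, the hemocyte-rich library, the median of the 5 nucleolar genes was -0.38. Without cic wts day 5 replicate 2, which held the 623 CPM of fat body markers, that median was -0.58. The roX RNAs summed to 231 to 442 CPM at day 9 and 449.6 to 1112.2 CPM at day 5, without overlap, and Mnt is X-linked. The part of the muscle progenitor markers and of the roX RNAs was not tested.

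In wts discs the same genes had negative log2 fold changes with age but did not pass the test. At day 9, RpI1 held 144, 163 and 154 CPM, RpI135 held 68.3, 71.1 and 74.1 CPM and Fib held 181, 158 and 168 CPM. Nop60B held 402, 339.6 and 379 CPM there, and nop5 held 291, 262 and 278 CPM. For RpI1, Nop60B and nop5 each day 9 library lay below each day 5 library, as for 16.9% of all genes, and for RpI135 and Fib the days overlapped.

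On the log2 scale, day 9 against day 5 in wts discs was -0.26 ± 0.11 for RpI1 (adjusted p = 0.14), -0.26 ± 0.12 for Nop60B (0.19), -0.25 ± 0.12 for nop5 (0.23), -0.17 ± 0.12 for RpI135 (0.41) and -0.22 ± 0.15 for Fib (0.38). With edgeR 0 of 7 members were called, where 6.89% of all genes were. An unadjusted p under 0.05 was found for 4 members (dm, Mnt, RpI1 and Nop60B) and for 2246 of the 9004 genes tested. DESeq2 called 2 members, dm and Mnt, and 1082 of all genes. A difference between the genotypes in the change with age was not detected: the interaction ranged over the 5 nucleolar genes from -0.26 ± 0.15 for RpI1 (adjusted p = 0.81) to -0.11 ± 0.21 for Fib (adjusted p = 0.96). It had 0 calls among the 7 members and 0% among all genes with edgeR. No member was under an unadjusted p of 0.05, 593 of all genes were, and DESeq2 called 0 members and 33 genes.

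**Figure D4:**
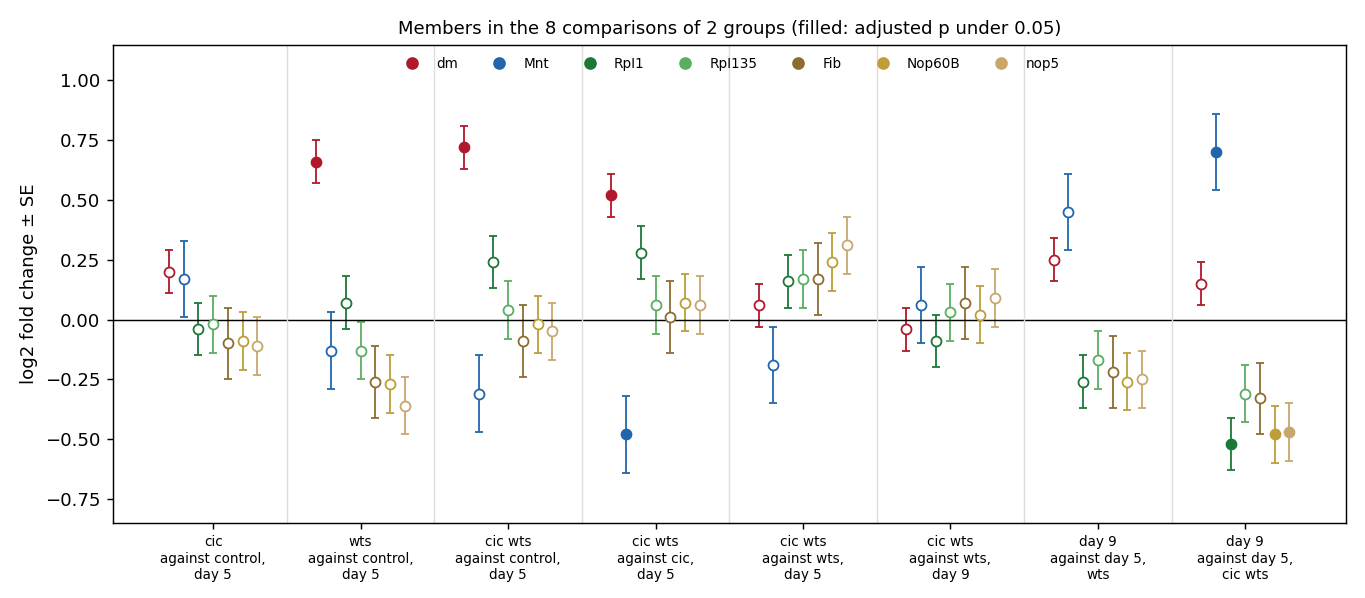
Log2 fold change ± SE of each member in the 8 comparisons of 2 groups, filled where the adjusted p was under 0.05. Filled points are dm in the 3 comparisons of wts-mutant with wts-intact discs at day 5, Mnt in cic wts against cic, and Mnt, RpI1, Nop60B and nop5 in day 9 against day 5 of cic wts discs.

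Across the 18 libraries the 5 nucleolar genes lay nearer to each other than to dm or Mnt, with Fib, Nop60B and nop5 the nearest. RpI1 and RpI135 had their highest group mean in cic wts discs at day 5, and Fib, Nop60B and nop5 in control discs. Likeness was measured as the root mean square difference of 2 genes' log2 CPM after centring each gene, so that 0 means parallel courses, and libraries of 1 group and their scaling factors enter all genes alike. Nop60B and nop5 were the closest pair, at 0.044, followed by Fib and Nop60B at 0.091 and Fib and nop5 at 0.096. RpI1 and RpI135 differed by 0.118, and the widest difference within the 5 was 0.187, between RpI1 and nop5. Between dm and the others it was 0.421 to 0.574, and between Mnt and the nucleolar genes 0.452 to 0.511.

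Among 6817 genes with a mean of at least 5 CPM, the 5 whose course was nearest to the mean of the nucleolar members were CG8939 at 0.055, CG5033 at 0.056, Nop56 and CG30349 at 0.066 each and CG9143 at 0.067. Nop56, a box C/D snoRNP core protein, was on the list of other nucleolar genes and the rest were not. Nearest to dm were, in order, CG2698, CG6398, Paip2, tud and norpA, from 0.124 to 0.135. Nearest to Mnt were CG34401, GalNAc-T2, CG31121, CG31224 and Past1, from 0.139 to 0.147. Distances to the nucleolar mean, which averages 5 genes, are not comparable with those to single genes: the root mean square of the course itself was 0.216 for that mean, 0.350 for dm and 0.305 for Mnt.

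A further 38 nucleolar genes were listed, 7 of RNA polymerase I transcription, 7 of snoRNPs and 24 of ribosome assembly, and all were tested. Their median root mean square difference from the mean of the 5 members was 0.218 for polymerase I, 0.120 for snoRNP and 0.110 for assembly genes, against 0.282 over all genes compared. A gene with no change at all would lie at 0.216, so the polymerase I genes were at the median no nearer than a flat gene.

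Non1, a GTPase of large subunit assembly, and udd were called higher in the 3 comparisons where dm rose. Non1 rose by 0.73 ± 0.12 in wts discs (SE; adjusted p = 0.00096), to 889 ± 102 CPM, and by 0.72 ± 0.12 in cic wts discs (adjusted p = 0.00072), to 883 ± 12.1 CPM, both against the same 536 ± 86.2 CPM in control discs (SD, n = 3 each). Against cic discs, at 481 ± 60.0 CPM, it rose by 0.87 ± 0.12 in cic wts discs (adjusted p = 8.4e-05). All 3 calls of Non1 held under the 25 alternatives, with adjusted p of at most 0.014.

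In wts against control 2 of the 38 rose, Non1 and udd, and 2 fell, Nop17l and eIF6, where 18.2% of all genes were called. The median log2 fold change was -0.11, against 0.00 over all genes. The polymerase I cofactor gene udd rose by 0.53 ± 0.13 (SE; adjusted p = 0.01), a call that ended without wts day 5 replicate 3 (0.44, adjusted p = 0.063) or control replicate 1 (0.41, 0.05). Nop17l, at -0.60 ± 0.18 (adjusted p = 0.03), lost its call on leaving out any 1 of 5 of the 6 libraries compared. The gene for eIF6, which keeps the large subunit from joining too early, stood at -0.35 ± 0.11 (adjusted p = 0.04) and lost its call under 8 of the 25 alternatives.

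In cic wts against control 4 of the 38 rose (Non1, udd, Dbp73D and Tif-IA) and 1 fell (Nop17l), where 22.5% of all genes were called. The median was 0.05, against 0.01 over all genes. There udd rose by 0.53 ± 0.13 (SE; adjusted p = 0.0074), and the call was kept without each single library but not in a fit of the 6 libraries compared alone (0.53, 0.065). Tif-IA, the initiation factor of polymerase I, had 0.29 ± 0.09 (adjusted p = 0.028) and lost its call without cic wts day 5 replicate 2 (0.24, adjusted p = 0.11), control replicate 1 (0.28, 0.081) or control replicate 3 (0.25, 0.092). It was also lost with total-count scaling (0.24, 0.069), in a fit of the 6 libraries compared alone (0.28, 0.057) and without control replicate 3 and cic wts day 5 replicate 1 together (0.29, 0.079). The calls of Dbp73D and Nop17l ended under 16 and 4 of the 25 alternatives.

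In cic wts against cic 4 rose (Non1, mod, udd and Ns2) and 2 fell (eIF6 and Nop17l), where 29.2% of all genes were called. The median was 0.07, against 0.01 over all genes. The nucleolar protein gene mod rose by 0.60 ± 0.11 (SE; adjusted p = 0.00086), to 720.4 ± 51.3 CPM in cic wts discs, against 476 ± 60.3 CPM in cic discs (SD, n = 3 each). In the same comparison eIF6 fell by 0.65 ± 0.11 (adjusted p = 0.00038), to 101 ± 8.95 CPM in cic wts discs, against 158 ± 28.0 CPM in cic discs (SD, n = 3 each). The calls of mod and eIF6 held under the 25 alternatives. The call of udd (0.51 ± 0.13, adjusted p = 0.0063) ended in a fit of the 6 libraries compared alone (0.50, 0.051). The calls of Ns2 and Nop17l ended under 5 and 4 of the 25, among them without cic replicate 3 for Ns2 (0.17, adjusted p = 0.14) and without cic replicate 1 for Nop17l (-0.36, adjusted p = 0.14).

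For the effect of cic, eIF6 was the 1 gene of the 38 called in cic against control (0.45 ± 0.11, adjusted p = 0.048), where 1.63% of all genes were, and that call ended under 21 of the 25 alternatives. In cic wts against wts at day 5 edgeR called 0 of the 38, where 2.91% of all genes were called. Of the 38, 7 were under an unadjusted p of 0.05, as were 1370 of all genes. DESeq2 called 2 of the 38 and 487 of all genes. At day 9 edgeR called 1, ppan (0.32 ± 0.09, adjusted p = 0.04), where 6.90% of all genes were called. The call of ppan was lost on leaving out any 1 of the 6 libraries compared and without a filter on low counts (0.33, 0.058). It was also lost without control replicate 3 and cic wts day 5 replicate 1 together (0.32, 0.051).

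The wider lists were also lower at day 9. In cic wts discs 0 of the 38 rose and 14 fell between day 9 and day 5, 36 of 38 had a negative log2 fold change, and the median was -0.27, against -0.01 over all genes, of which 6.06% were called higher and 4.54% lower. The 14 were 1 of 7 polymerase I genes, 5 of 7 snoRNP genes and 8 of 24 assembly genes.

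Among them hoip, an RNA-binding protein of box C/D snoRNPs, fell by 0.47 ± 0.09 (SE; adjusted p = 0.0053), to 107 ± 12.8 CPM at day 9, against 148 ± 8.80 CPM at day 5 (SD, n = 3 each). Surf6, a nucleolar protein gene, fell by 0.40 ± 0.07 (adjusted p = 0.0047), to 51.7 ± 2.87 CPM at day 9, against 68.1 ± 2.69 CPM at day 5 (SD, n = 3 each). These 2 calls held under the 25 alternatives. The call of l(1)1Bi, listed as Mybbp1A in the reference, at -0.54 ± 0.11 (adjusted p = 0.0075), ended without cic wts day 9 replicate 1 (-0.45, with an adjusted p of 0.057). The call of mod, at -0.43 ± 0.11 (adjusted p = 0.025), ended without cic wts day 9 replicate 1 (-0.35, adjusted p = 0.14), cic wts day 5 replicate 1 (-0.41, 0.076), cic wts day 5 replicate 3 (-0.40, 0.06), or control replicate 3 and cic wts day 5 replicate 1 together (-0.42, 0.086).

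The number of the 38 that fell was 2 without cic wts day 9 replicate 1, 4 without cic wts day 5 replicate 1, 4 with control replicate 3 left out as well, and 6 without cic wts day 9 replicate 2 or without cic wts day 5 replicate 3, while the median stayed between -0.23 and -0.33. In wts discs 2 of the 38 were called with edgeR, where 6.89% of all genes were. They were hoip at -0.37 ± 0.09 (adjusted p = 0.027) and Surf6 at -0.32 ± 0.08 (adjusted p = 0.021). DESeq2 called 4 of the 38 and 1082 of all genes. Each of the 2 edgeR calls ended on leaving out any 1 of at least 4 of the 6 libraries compared. There 35 of 38 were negative and the median was -0.18, against -0.02 over all genes.

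**Figure D5:**
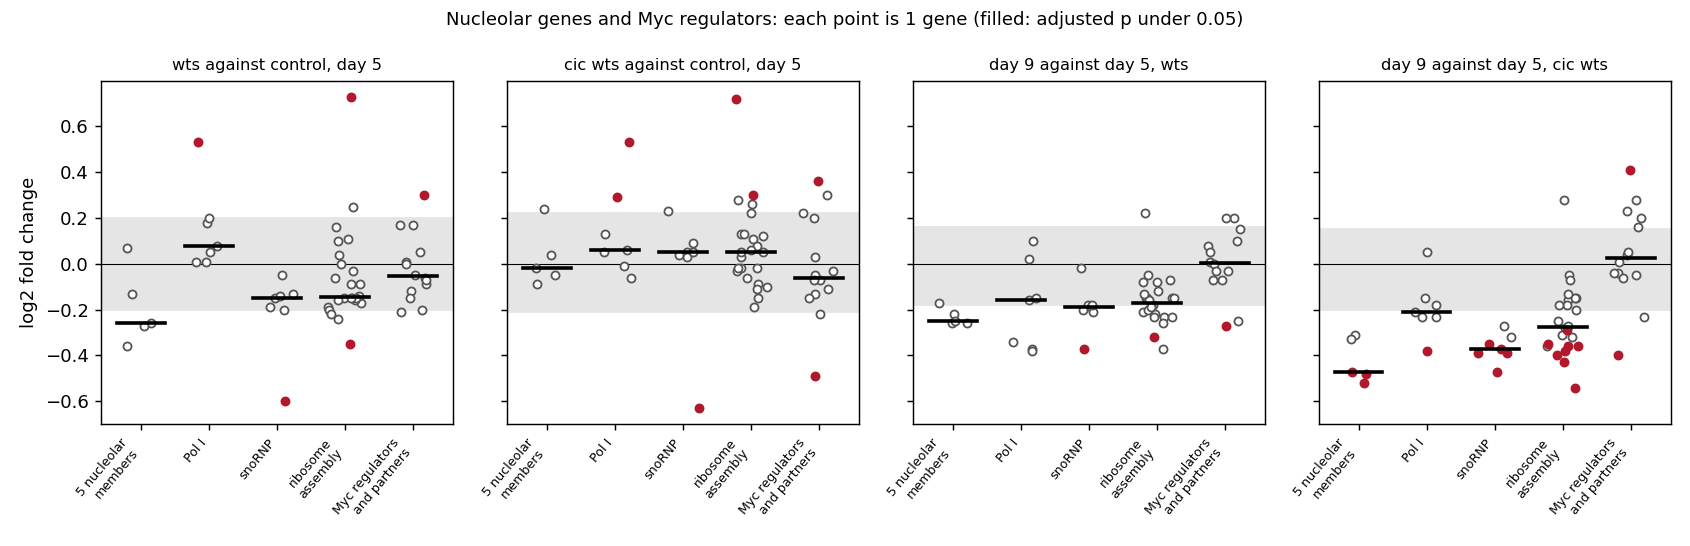
Log2 fold changes of single genes in the 5 nucleolar members, the 3 wider nucleolar lists and the Myc regulators, for 4 comparisons, with the list median as a bar, called genes filled, and the middle 50% of all genes shaded. In day 9 against day 5 of cic wts discs 14 of 38 wider nucleolar genes are filled, all below 0, and in wts against control 2 lie above and 2 below.

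Of 14 regulators and partners of Myc, 1 rose and 0 fell in wts against control, where 18.2% of all genes were called. In cic wts against control 1 rose and 1 fell, where 22.5% of all genes were called. The list medians were -0.05 and -0.06, against 0.00 and 0.01 over all genes. Max, the partner that Myc and Mnt share, rose in cic wts discs by 0.36 ± 0.08 (SE; adjusted p = 0.006). It averaged 53.1 ± 2.79 CPM there, against 41.5 ± 1.93 CPM in control discs (SD, n = 3 each). In wts discs, at 51.1 ± 1.72 CPM, it was the only gene of the 14 called, with 0.30 ± 0.08 (adjusted p = 0.021), and the call ended without wts day 5 replicate 3 (0.26, adjusted p = 0.094) or control replicate 3 (0.27, 0.069), without control replicate 3 and cic wts day 5 replicate 1 together (0.27, 0.063), and with total-count scaling (0.24, 0.053).

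The gene ago, which encodes the F-box protein that marks Myc and Cyclin E for degradation, went the other way. In cic wts discs it fell by 0.49 ± 0.10 against control (SE; adjusted p = 0.0026) and by 0.56 ± 0.10 against cic (adjusted p = 0.00058), at 175 ± 16.5 CPM in cic wts, 259 ± 30.6 CPM in cic and 247 ± 27.2 CPM in control discs (SD, n = 3 each). The calls of Max and ago in cic wts against control and of ago in cic wts against cic held under the 25 alternatives. In cic wts against cic Max and mei-P26 were also called higher and CkIalpha lower, and these calls ended under 16, 5 and 3 of the 25 alternatives. In that comparison 2 of the 14 rose and 2 fell, where 29.2% of all genes were called. The list median was -0.06, against 0.01 over all genes.

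With age, pont, an ATPase of chromatin complexes, fell by 0.40 ± 0.07 in cic wts discs (SE; adjusted p = 0.0031), to 105 ± 8.67 CPM at day 9, against 139 ± 10.3 CPM at day 5 (SD, n = 3 each), and the call held under the 25 alternatives. In wts discs its value was -0.27 ± 0.07 (adjusted p = 0.035), a call that ended under 7 of the 25. Of the 14, 0 rose and 1 fell with age in wts discs, where 6.89% of all genes were called. In cic wts discs 1 rose and 1 fell, where 10.6% of all genes were called. The level of ago in cic wts discs was 233 ± 14.5 CPM at day 9 and 175 ± 16.5 CPM at day 5 (SD, n = 3 each), a log2 fold change of 0.41 ± 0.10 (adjusted p = 0.019), and its call ended on leaving out any 1 of 4 of the 6 libraries compared, with adjusted p of at most 0.1, and without control replicate 3 and cic wts day 5 replicate 1 together (0.40, 0.06).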

How the data were processed

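The authors deposited 1 table of raw counts of reads per gene for 18 RNA libraries. Bowtie2, TopHat2, HTSeq, DESeq2 and the dm6 build are named per the submitters' processing notes, while versions, the step each did and strandedness were not given in the sources used. The 13 ChIP-nexus samples of the 31 in the series were not analysed here. The table held 17373 genes, 2937 of them at 0 throughout. Symbols and positions came from a RefSeq gene table of Release 6.

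Groups and replicate numbers came from the labels. The quasi-likelihood F test of edgeR 4.0.16 (R 4.3.3) was applied to the deposited counts after filterByExpr and TMM scaling, in 1 fit of 18 libraries with a mean per group, on 9004 genes, with Benjamini-Hochberg adjustment and a threshold of 0.05. Standard errors come from the fold change and its F statistic. Between replicates the biological coefficient of variation was 0.185. CPM values and log2 CPM (prior count 2) were computed here. No replicate pair was identical: between replicates chi-square over its degrees of freedom was at least 10.4. The alternatives included DESeq2 1.42.0. The fit was tested on simulated data.

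The members and lists were chosen with earlier results of these data known. Genes named by rule were the 7 members, cic and wts, up to 3 rises and 3 falls of each wider list per comparison, and the 5 nearest courses; not all of those allowed are printed. A planned description of promoter motifs was not made, as no sequences were used here.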

Additional observations from a re-analysis of the deposited data

How the results depend on the processing

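Of 70 values, 7 members in 10 comparisons, 8 were called, and 3 of these, the rises of dm, kept their call under all 25 alternatives, with 0 calls reversed. The number of members called in wts against control was 1, and 2 with RLE size factors, total-count scaling, DESeq2, or without control replicate 3 and cic wts day 5 replicate 1 together. In cic wts against cic it was 2, and 1 with only the libraries compared or without those 2 libraries. In day 9 against day 5 it was 0 in wts discs, and 1 with only the libraries compared and 2 with DESeq2; in cic wts discs it was 4, and 3 with only the libraries compared and 2 without those 2 libraries. Leaving out 1 library in turn gave 1 to 2 members in wts against control and in cic wts against control, 1 to 3 in cic wts against cic, 0 to 1 in day 9 against day 5 of wts discs and 0 to 5 in cic wts discs. Apart from leaving out 1 library, the cause of these changes was not tested.

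Over all genes, the calls in cic against control numbered 147, against 19 with only the libraries compared, 248 with DESeq2 and 61 at the lowest without 1 library. With only the libraries compared they numbered 1044 in place of 2022 in cic wts against control, 1481 in place of 2629 in cic wts against cic, 1031 in place of 620 in day 9 against day 5 of wts discs (DESeq2 1082, lowest without 1 library 118) and 78 in place of 175 in the interaction of cic with wts (DESeq2 395, lowest 92). DESeq2 called 487 in place of 262 in cic wts against wts at day 5 (lowest 105). Without 1 library the lowest number was 813 in place of 1635 in wts against control, and 307 in place of 621 in cic wts against wts at day 9. In day 9 against day 5 of cic wts discs it was 237 in place of 955. Leaving out control replicate 3 and cic wts day 5 replicate 1 together gave 403 there. Total-count scaling gave 635 higher and 1081 lower in wts against control in place of 900 and 735, 749 and 1293 in cic wts against control in place of 1014 and 1008, and 1080 and 1558 in cic wts against cic in place of 1352 and 1277. Counts of list genes changed by 1.5 times or more in 42 of 280 values. The snoRNP genes called in day 9 against day 5 of cic wts discs were 5, against 3 with only the libraries compared. Without control replicate 3 and cic wts day 5 replicate 1 they were 1, and the assembly genes were 3 in place of 8.

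The replicate numbers were not shown to pair the samples. Same-numbered deviations from the group means correlated between -0.139 and 0.442. The highest values were 0.442 (replicate 3) and 0.345 (replicate 1) in cic wts against cic, and 0.4 (replicate 3) in cic against control. In day 9 against day 5 of cic wts discs all 6 libraries correlated best with their own number, at 0.0679 or less. With the number as a replicate block the members called stayed at 0 in cic against control, 1 in wts against control, 1 in cic wts against control, 2 in cic wts against cic and 4 in day 9 against day 5 of cic wts discs, and the interaction of cic with day called 3 of all genes in place of 0. Intervals for single counts cover counting error only, and 3 libraries a group limit the differences that can be detected.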

Other observations

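Within groups, Mnt and RpI1 tended to lie at opposite ends. In 5 of the 6 groups the library with the most Mnt was the library with the least RpI1. This held in 4 groups for RpI135, in 3 for Fib, Nop60B and nop5, and in 1 for dm. Over all genes, 3.27% were lowest in the library with the most Mnt in at least 5 groups, and 12.5% in at least 4. The converse, the most RpI1 in the library with the least Mnt, held in 4 groups. The pattern was chosen after the values were seen, and no test was made of it.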
